A study of Mus musculus with 2031 samples.

Results

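A set of 9 innate immune and alarmin genes, of 49671 genes in the files, was followed through every cell type and both brain areas of an adult mouse astrocyte data set: Il33, Tlr3, Tril, C4b, Serpina3n, B2m, H2-D1, H2-K1 and Lcn2. They are named genes with roles in innate immunity, chosen with earlier results of these data known. The cells came from untreated C57BL/6J mice at postnatal day 56. Cortex gave 2 cell suspensions, each from 1 animal and the animals littermates, and hippocampus gave 2, each pooled from 4 littermates. Cells that bound the astrocyte antibody ACSA-2 and not the oligodendrocyte antibody O1 were sorted singly into wells, and a full-length Smart-seq2 library was sequenced from each. The classes and the 5 astrocyte subtypes, AST1 to AST5, are those the authors assigned by clustering. Of 2030 cells with counts, 1781 were astrocytes: 657 AST1, 555 AST2, 452 AST3, 91 AST4 and 26 AST5. AST1 and AST4 were mostly hippocampal and AST2 mostly cortical. The other classes are cells that the sort let through, with mural cells (27, 12, 48 and 47 in cortex 1, cortex 2, hippocampus 1 and hippocampus 2), 30 endothelial cells, 17 neurons, all of them hippocampal, 11 microglia and 9 oligodendrocytes. No treated animals were part of the design.

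Interleukin-33, encoded by Il33, is an alarmin: it is held in the nucleus and alerts immune cells once a damaged cell lets it out, through the receptor ST2. Toll-like receptor 3 recognises double-stranded RNA inside endosomes, and TRIL, first described in brain, is an accessory protein of Toll-like receptors 3 and 4. C4b encodes complement component C4, Serpina3n a secreted serine protease inhibitor and Lcn2 the iron-scavenging lipocalin 2, and transcripts of these last 3 genes are known to rise in reactive astrocytes. H2-K1 and H2-D1 encode the classical class I heavy chains of this mouse strain, which show peptides to CD8 T cells, and B2m encodes beta-2 microglobulin, the light chain that both need to reach the cell surface.

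Each cell held between 600758 and 3238215 gene counts, with a median of 1458411. This read depth does not measure how many transcripts of a cell were captured. A cell without a count may therefore still have held the transcript. Cells from the same suspension share their animals, and the suspension was therefore taken as the replicate. Counts of a cell type were summed within each suspension, and levels are given as CPM of these sums after TMM scaling, that is, as counts relative to the scaled total of the sum. A sum moves both with the share of cells that hold a transcript and with the level inside them, so the share of cells with at least 1 count is given as well. Suspensions are named cortex 1, cortex 2, hippocampus 1 and hippocampus 2, and values follow that order. The authors named the classes by known markers in these same cells, so marker sums are no independent check of the labels. Before TMM scaling, 10 astrocytic markers summed to between 44675 and 46157 CPM in astrocytes. In microglia 10 microglial markers summed to between 46542 and 62542 CPM. Endothelial sums held 31082 to 36303 CPM of 10 endothelial markers and also 10915 to 27858 CPM of 10 mural markers. Mural sums held 52732 to 62890 CPM of these mural markers. The part of the mural markers in the endothelial values was not tested. Microglial markers together reached between 82.4 and 117.5 CPM in astrocytes. All 26 AST5 cells had less than 3% of their reads outside exons, as had 11 of the 1755 other astrocytes. The part this plays in the AST5 values was not tested.

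Il33 was a transcript of astrocytes and oligodendrocytes. Counts were present in 40.9% of astrocytes, 729 cells, and in 8 of 9 oligodendrocytes. Elsewhere 1 mural cell and 1 of 11 microglia held it, and no endothelial cell or neuron did. That microglial cell came from cortex 2, where the microglial sum also carried 8262 CPM of astrocytic markers before TMM scaling. The part of these markers in its Il33 count was not tested. In astrocytes the level was 418, 488, 273.1 and 265.2 CPM, with a mean of 361.1 ± 110 (SD, n = 4). In oligodendrocytes, which gave a sum in the hippocampal suspensions alone, it was 1108 and 1541 CPM. Both oligodendrocyte sums thus lay above every astrocyte sum, although the log2 difference of 1.28 (SE 4.88) did not pass the test (edgeR quasi-likelihood, adjusted p = 0.923), and without hippocampus 1 it was -1.29. Endothelial cells had 0 counts in all 4 suspensions, at least 6336-fold lower than astrocytes if 3 counts over the group are taken as the limit (adjusted p = 0.0441). This and the later bounds cover read-counting error only: reads without molecular tags are not independent molecules, and 0 of 30 endothelial cells allows a share of up to 10% with a count. In this comparison 17.9% of all genes tested were called. With the suspension as a block in the fit, which compares classes inside the same animals, the edgeR adjusted p was 0.0749. Oligodendrocyte RNA carried into astrocyte wells can be estimated, as an average over a sum, from 10 oligodendrocytic markers. At the highest share of those markers seen in a sum, it would bring 16.8 CPM of Il33 into all astrocytes together. By subtype it would bring between 5.52 CPM in AST4 and 27.4 CPM in AST5. Such an average does not cover single cells of mixed content. The part of carried RNA in the Il33 values was not tested.

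**Figure D1:**
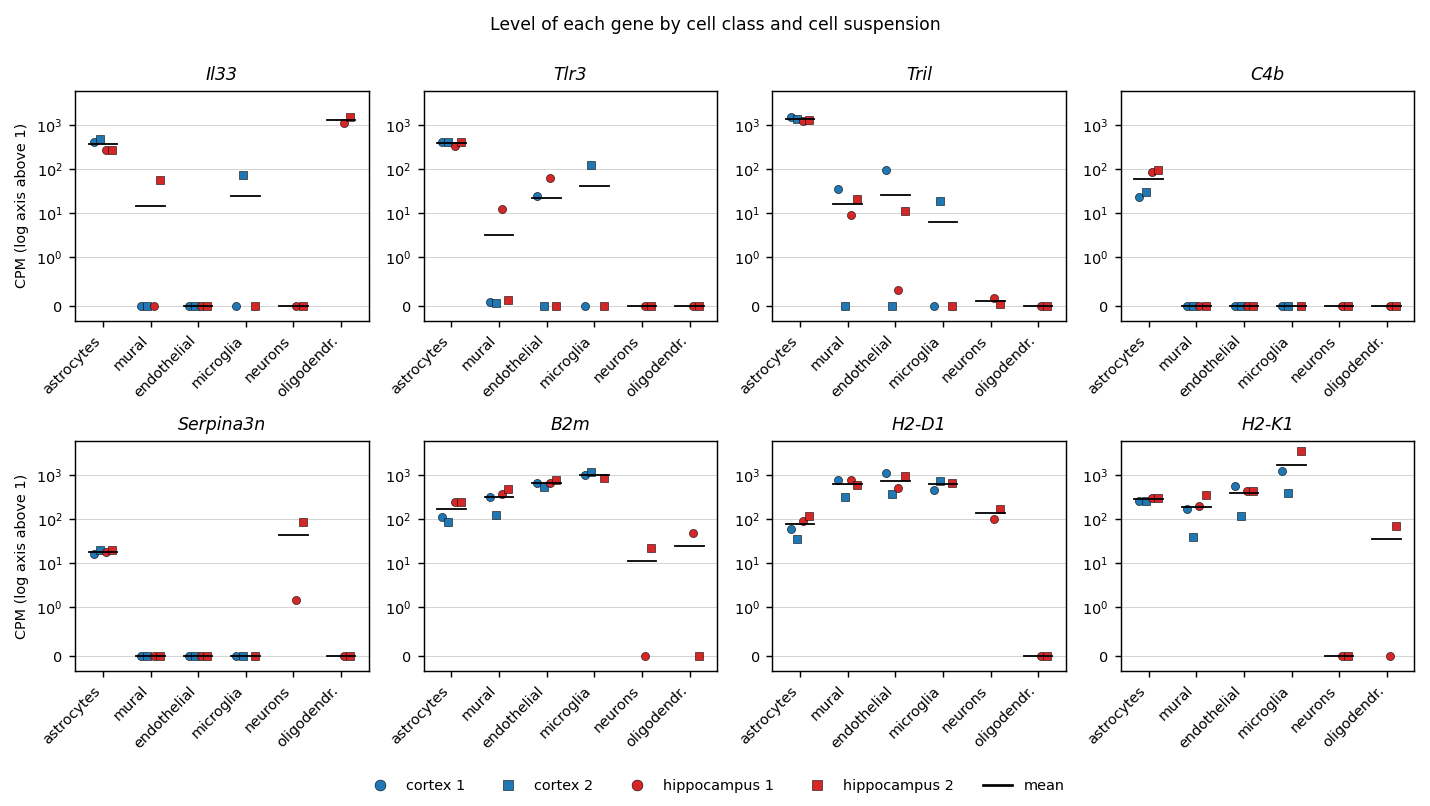
Level of each gene in sums of cells, in CPM on an axis that is logarithmic above 1, for astrocytes and 5 other classes. Points are suspensions (blue cortex, red hippocampus), and horizontal lines are means. Il33 is highest in oligodendrocytes at 1108 and 1541 CPM, Tlr3, Tril and C4b are highest in astrocytes, and H2-D1 lies at 323.1 CPM or more in every mural, endothelial and microglial sum against at most 118.5 CPM in astrocytes. Lcn2, with 0 counts, is not drawn.

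Among astrocytes, Il33 was nearly missing from AST4. A count was found in 4.88% and 4.17% of AST4 cells in hippocampus 1 and hippocampus 2, against 29.8%, 34.5%, 23.6% and 23.7% of AST1 cells, so AST4 and AST1 did not overlap. AST2 had 51.7%, 47%, 80% and 50%, and AST3 61.7%, 57.6%, 58.5% and 62.2%; their ranges overlapped, and both lay wholly above AST1 in this share. The level in AST4 was 0.0345 and 18.2 CPM and in AST3 506, 528, 595 and 644 CPM. AST1 held 185, 491, 218.4 and 187.2 CPM and AST2 396, 419, 587 and 279.3 CPM, so by level AST1 and AST2 overlapped. In the cells that held Il33 its median was 494 CPM in AST1, 527 in AST2 and 542 in AST3, 17.3 in the 5 AST4 cells and 1142 in the 12 AST5 cells. The AST5 sums held 240.7, 544 and 189.02 CPM in cortex 1, cortex 2 and hippocampus 1, inside the range of the AST1, AST2 and AST3 sums. AST4 against the other subtypes, weighted by cell number, gave a log2 fold change of -5.29 (SE 1.50) that missed the threshold with edgeR's quasi-likelihood test (adjusted p = 0.214), passed it with DESeq2 (adjusted p = 6.83e-05) and with limma's voom (adjusted p = 0.0103). No member passed in AST4 with edgeR, where 0.636% of 18233 genes did; 2 of the 8 members tested, Il33 and Tlr3, had an unadjusted p under 0.05. Of the members, 1 was called there by DESeq2 and 3 by limma's voom. Of all 18233 genes, 7.82% had such a p with edgeR, and DESeq2 called 2100 genes and voom 896. The subtypes were clustered on these same counts, so none of these tests is independent evidence that they differ.

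The partners of Il33 were followed too. Il1rl1, the ST2 receptor, was counted in 1 of the 4 astrocyte sums at 0.0023 CPM and was at 0 in every sum of the other classes. Il1rap, the shared coreceptor, stood at 371.5 and 547 CPM in oligodendrocytes and between 8.67 and 23.4 CPM in astrocytes. Il18, a further cytokine of the family, was an astrocyte transcript at 492 ± 112.8 CPM (SD, n = 4). It was lower in mural cells and microglia by the class test without the suspension as a block. In AST4 it was lower by 1.61 on the log2 scale (SE 0.34, edgeR adjusted p = 0.0477). Of the 13 genes listed for the interleukin-1 family, 7 passed the low-count filter in the class comparison: 2 were lower and 0 higher in mural cells, 4 lower and 1 higher in endothelial cells, and 1 lower and 1 higher, Il1a, in microglia. Over all genes tested, 11.6%, 16% and 10.6% were lower in these classes and 1.76%, 1.92% and 0.794% higher.

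By share of astrocytes, Tril came first of the 9 genes, with 1526 cells (85.7%), and Tlr3 second, with 922 (51.8%). The Tril level in astrocytes was 1494, 1373, 1202 and 1296 CPM. No Tril sum of another class exceeded 93.1 CPM, the value of endothelial cells in cortex 1, and the next highest was 35.7 CPM in mural cells of the same suspension. Tlr3 in astrocytes was at 402, 419, 328.9 and 416 CPM. Its highest sum elsewhere was 120.7 CPM, in the 3 microglia of cortex 2, where 1 cell held all of it; that sum also carried 8262 CPM of astrocytic markers, against 395 and 542 CPM in the other microglial sums. The part of these markers in the Tlr3 value was not tested. Neither gene was called in any class with edgeR. For Tril the log2 differences were -6.41 (SE 2.58, adjusted p = 0.116) in mural cells, where 13.4% of all genes were called, and -6.50 (SE 2.65, adjusted p = 0.0931) in endothelial cells. The astrocyte sums nevertheless lay above every sum of the other classes for both genes.

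The 2 smallest subtypes stood apart for these sensors. Tlr3 was held by 12.2% and 25.0% of AST4 cells in the 2 hippocampal suspensions and by 12.5%, 10% and 0% of AST5 cells in cortex 1, cortex 2 and hippocampus 1, whereas AST1, AST2 and AST3 lay between 36.8% and 67.1%. AST5 sums, of 8, 10 and 6 cells, held 1.86, 0.347 and 0 CPM of Tlr3, and the lowest sum of AST1, AST2 or AST3 held 207.3 CPM. In AST5 against the other subtypes the median log2 difference over all genes was -4.55. It was -2.16 when genes with 0 counts in a group are set to their limit. Tlr3 was the one member called among subtypes: it fell by 8.69 on the log2 scale in AST5 (SE 1.18, edgeR adjusted p = 1.57e-04), where 17% of all genes tested were called, 16.6% as lower. It passed in each of the 12 alternative fits, with an adjusted p between 6.25e-31 and 0.00921. Tril in AST5 was at 200.6, 135 and 0 CPM and in AST4 at 105 and 218.3 CPM, all below the lowest AST1, AST2 or AST3 sum of 1161 CPM, but with edgeR adjusted p values of 0.0921 and 0.737. Tlr3 was at 487, 479, 803 and 364.5 CPM in AST2, at 349.1, 331.3, 381.01 and 575 CPM in AST3 and at 207.3, 327.3, 348.7 and 428 CPM in AST1. The 3 ranges overlapped. AST2 was the highest of them in 3 suspensions and the lowest in hippocampus 2.

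Of the Toll-like receptor adaptors and relatives, Ticam1, the adaptor that Toll-like receptor 3 signals through, was present in all 4 astrocyte sums at 49.3 ± 9.59 CPM (SD, n = 4). Tlr4 was at 5.33 ± 2.93 CPM in astrocytes and at 57.1 ± 37.2 CPM in mural cells. Tlr7 and Tlr13, endosomal receptors for single-stranded and ribosomal RNA, were microglial, with 0 counts of Tlr7 in every astrocyte sum. In microglia 3 of 22 tested genes of the Toll-like receptor list were higher, Tlr7, Tlr13 and Unc93b1, and 0 lower. In that contrast 11.3% of all genes were called, 0.794% as higher.

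C4b was found in a minority of astrocytes, 9.60% of 1781, with a median of 343.1 CPM in those cells. In astrocytes the sums gave 23.6, 29.8, 84.7 and 96.7 CPM. Both hippocampal values lay above both cortical ones. Every sum of the 5 other classes held 0 counts, and a single oligodendrocyte, in cortex 1, held 58.97 CPM. C4b was lower in mural cells, at least 3418-fold (edgeR adjusted p = 0.0325), and in endothelial cells, at least 1030-fold (adjusted p = 0.0387), with 3 counts over the group as the limit and for read-counting error only. With the suspension as a block these edgeR adjusted p values were 0.0756 and 0.0749. In microglia C4b was at least 494-fold lower on the same terms, with an adjusted p of 0.0504 without the block. By cells, 0 counts allow a share of up to 2.24% in mural cells, 10% in endothelial cells and 33.3% in microglia. The limits for endothelial cells and microglia are not below the 9.60% of astrocytes. Within astrocytes AST1 held 25.8, 75.2, 98.2 and 112.9 CPM and AST2 18.9, 9.59, 51.8 and 0 CPM. The ranges overlap, but AST1 was above AST2 in each of the 4 suspensions. AST4 held 76.6 and 144.2 CPM, and none of these contrasts was called. Of the 9144 C4b counts of AST4 in hippocampus 2, 1 cell held 3715 and another 2376. By its total of gene counts, the cell with 2376 was also the top AST4 cell of that suspension for B2m, H2-D1 and H2-K1.

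Serpina3n was rarer still. It had a count in 58 astrocytes (3.26%), with a median of 318.9 CPM in those cells. Its astrocyte sums were even, at 15.8, 19.9, 17.7 and 19.7 CPM, with no split by brain area. Mural and endothelial cells had 0 counts, at least 1063-fold and 320-fold lower than astrocytes by read counting alone (edgeR adjusted p = 0.0330 and 0.0393). With the suspension as a block these adjusted p values were 0.0756 and 0.0749. By cells, up to 2.24% of mural and 10% of endothelial cells could hold it, so a difference in share between endothelial cells and astrocytes was not detectable at this number of cells. Neurons held 1.49 and 86.7 CPM, from 3 of 17 cells, so astrocyte sums lay inside their range. Across the subtypes Serpina3n sums ran from 0 to 69.4 CPM without a call, and 1 AST1 cell of cortex 2 held 4.44% of all Serpina3n counts in astrocytes.

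Lcn2 had no count in any of the 2030 cells. For astrocytes this allows a share of up to 0.168% with a count, and for mural and endothelial cells up to 2.24% and 10%. The limits cover counting error only, since Smart-seq2 reads carry no molecular tags. Lcn2 did not pass the low-count filter and was the only member left untested. Slc22a17, a receptor reported for lipocalin 2, was at 362.3 ± 60.1 CPM in astrocytes (SD, n = 4) and at most 3.96 CPM in mural and 0.0666 CPM in endothelial cells. Gfap, the intermediate filament that rises in reactive astrocytes, was present in all AST4 and AST1 sums, at 2256 ± 28.99 CPM (SD, n = 2) and 1068 ± 720 CPM (SD, n = 4).

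C3, the component that C4 and C2 act on, was at 0 in every sum. C1qa, a chain of the recognition protein C1q, was microglial at 2622 ± 473 CPM (SD, n = 3) and at 1.32 ± 1.56 CPM in astrocytes. Clu, an inhibitor of the terminal complement complex, was among the abundant astrocyte transcripts. It was higher in AST1 by 0.90 on the log2 scale (SE 0.11, edgeR adjusted p = 0.00598, in a contrast where 0.0384% of all genes were called) and lower in AST4 (log2 -1.02, SE 0.17, adjusted p = 0.00747) and AST5 (log2 -0.66, SE 0.13, adjusted p = 0.00355). Of 25 listed complement genes 19 were tested in the class comparison, without C4b; 5 were higher in microglia, C3ar1 and Itgam with the largest differences, and 1, Cfp, was lower. In mural cells 1 was higher, C1s1, and 6 were lower, Masp1 and Clu among them. Over all genes the shares were 0.794% higher and 10.6% lower in microglia, and 1.76% higher and 11.6% lower in mural cells.

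B2m and the class I heavy chains had another order of cell types. B2m was found in all 30 endothelial cells and all 11 microglia, in 76.1% of mural cells and in 788 astrocytes (44.2%). Microglial sums held 997, 1184 and 872 CPM in cortex 1, cortex 2 and hippocampus 2, endothelial sums 649, 529.7, 654 and 771 CPM, mural sums 326.4, 125.6, 372.9 and 479 CPM, and astrocyte sums 109.7, 85.2, 245.9 and 242.7 CPM. Microglia lay above endothelial cells in every sum and endothelial cells above mural cells, whereas the ranges of mural cells and astrocytes overlapped, with mural cells higher in each of the 4 suspensions. No class passed the test for B2m; in microglia the log2 difference was 2.79 (SE 1.64, edgeR adjusted p = 0.188).

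H2-D1 was the member called higher outside astrocytes. Mural sums held 755, 323.1, 792 and 596 CPM, endothelial sums 1132, 363.3, 499 and 928 CPM, and microglial sums 447, 718 and 676 CPM. Astrocytes held 60.9, 35.4, 89.6 and 118 CPM, so no sum of these 3 classes reached down to them. H2-D1 was higher in mural cells by 3.01 on the log2 scale (SE 0.77, edgeR adjusted p = 0.0325), in endothelial cells by 3.22 (SE 0.78, adjusted p = 0.0352) and in microglia by 3.09 (SE 0.81, adjusted p = 0.0309). With the suspension as a block the edgeR adjusted p values were 0.0802, 0.0749 and 0.0812, so none passed. Endothelial sums also held mural markers at 10915 to 27858 CPM. Their part in the endothelial H2-D1 level was not tested. Over all genes the median log2 difference in these contrasts was -1.19, -2.41 and -9.45, and -1.20, -2.30 and -3.87 when genes with 0 counts in a group are set to their limit. In oligodendrocytes 0 counts were found in both sums, at least 424-fold lower than in astrocytes by read counting (adjusted p = 0.00277, 0.782% of all genes called). With the suspension as a block the edgeR adjusted p was 0.0534. These sums hold 7 of the 9 cells: 1 of the other 2, from cortex 1, held 450.9 CPM, so the bound is one for the 2 hippocampal sums and not for the class. In neurons H2-D1 stood at 98.8 and 170.8 CPM, a range that overlapped with astrocytes, although both sums were above the astrocyte sum of their own suspension.

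H2-K1 differed less between astrocytes and vessels. Astrocytes held 255.4, 253.3, 308.9 and 304.6 CPM, inside the ranges of mural cells, 39.4 to 357.2 CPM, and endothelial cells, 115 to 568 CPM. Microglia held 1242, 395 and 3464 CPM, all above astrocytes but with a wide spread, and the difference was not called (log2 2.40, SE 1.38, edgeR adjusted p = 0.179). Neurons had 0 counts in both sums, at least 4014-fold lower than astrocytes by read counting (adjusted p = 0.0356, with 0.562% of all genes called), and 0 of 17 cells allows a share of up to 17.6%. With the suspension as a block the edgeR adjusted p was 0.0812.

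All 3 genes were counted together in 9 of 11 microglia (81.8%), 19 of 30 endothelial cells (63.3%) and 31 mural cells (23.1%). In astrocytes this was so for 57 of 1781 cells (3.20%), and 605 (33.97%) had a count of none of them. Among subtypes the share was highest in AST4 with suspensions pooled: 15 of 91 AST4 cells (16.5%) held all 3, against 3.96% of AST1, 1.08% of AST2, 1.99% of AST3 and 1 of 26 AST5 cells (3.85%). That AST5 cell was 1 of 8 in cortex 1 (12.5%), so by suspension AST5 overlapped with AST4. In the hippocampal suspensions these shares were 12.2% and 20.8% in AST4 and 3.69% and 4.38% in AST1, without overlap. H2-D1 alone had a count in 31.7% and 45.8% of these AST4 cells and in at most 15.0% of the cells of any other subtype and suspension. H2-D1 sums of AST4 were 165.9 and 342.7 CPM and B2m sums 346.7 and 277.9 CPM, B2m above every sum of the other subtypes. For H2-D1 the AST1 sum of cortex 1, at 166.7 CPM, lay above the lower AST4 sum. The top AST4 cell held 2589 of 9612 H2-D1 counts in hippocampus 1 and 5251 of 21729 in hippocampus 2. For B2m the top cell of hippocampus 2 held 2731 of 17621 counts. By its total of gene counts it is the same cell as the top H2-D1 cell there. That cell also held 5333 of 20481 H2-K1 counts, so these AST4 sums share a top cell. With edgeR neither H2-D1 nor B2m was called in AST4 (adjusted p = 1 for H2-D1 and 0.699 for B2m). H2-D1 passed with limma's voom (log2 2.61, adjusted p = 0.0116) and not with DESeq2, and B2m passed with neither. The 10 mural markers were higher in AST4 too: they summed to between 292.4 and 671 CPM there, to between 198.8 and 210.4 CPM in AST1 and to a mean of 53538 CPM in mural cells. At the highest of these shares, 1.25%, mural RNA would bring 7.73 CPM of H2-D1 into AST4. Neuronal markers were also higher, at 54.8 and 88.0 CPM in AST4 against 11.2 to 23.1 CPM in AST1, and would bring at most 3.38 CPM of H2-D1. Endothelial markers were at 15.7 and 33.6 CPM against 0.19 to 20.04 CPM, with at most 0.919 CPM of H2-D1. Microglial markers, before TMM scaling, were at 78.7 and 112.4 CPM in AST4 and at 80.5 to 196.7 CPM in AST1. All these amounts are averages over a sum and do not cover single cells of mixed content. The part of carried RNA in the AST4 values was not tested. Before TMM scaling the 10 astrocytic markers summed to 30477 and 32542 CPM in AST4, below the 45823 to 48227 CPM of AST1. The part of the lower astrocytic markers in these values was not tested.

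**Figure D2:**
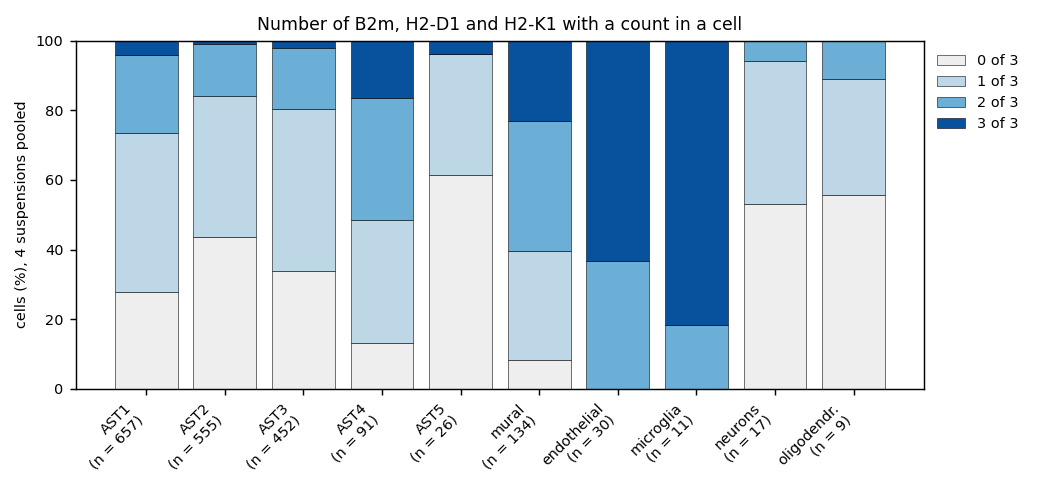
Share of cells in percent, with the 4 suspensions pooled, that hold a count of 0, 1, 2 or all 3 of B2m, H2-D1 and H2-K1, for each astrocyte subtype and class (n is the number of cells). All 3 are held by 81.8% of microglia, 63.3% of endothelial cells, 23.1% of mural cells and 16.5% of AST4 cells, and by less than 4% of every other astrocyte subtype.

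The promoters of these 3 genes share a sequence arrangement, shown because no other member in the table holds it. Promoters of 300 bases, 250 before to 50 after the start site, were taken from RefSeq for GRCm38.p6, in which 8 of the 9 members were listed. Class I promoters are known for an S-X-Y module, whose X2 part is a cyclic AMP response element half-site and whose Y part is a reverse CCAAT box. TGACG followed after 20 bases by ATTGG, on either strand, was found in B2m, H2-D1 and H2-K1 and in no other member, and in 0.0944% of 32851 promoters. TGACG alone was in 20.8% of promoters and ATTGG in 37.4%. The runs below are on the strand of the gene, with both motifs in capitals.
B2m, chr2:122147609-122147638: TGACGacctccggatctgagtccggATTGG
H2-D1, chr17:35262993-35263022: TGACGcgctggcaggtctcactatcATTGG
H2-K1, chr17:34000359-34000388: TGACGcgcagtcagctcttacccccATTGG
Of 18 other class I presentation genes in the table, H2-M3 alone held this spacing. An NF-kB motif, GGGGA followed directly by TTCCC, searched on both strands, was found in H2-D1 and H2-K1 among the members, in H2-Q6 and H2-Q7 of the other class I presentation genes, and in 0.107% of promoters. Its letters are in capitals in the next runs.
H2-D1, chr17:35262913-35262942: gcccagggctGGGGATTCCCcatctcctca
H2-K1, chr17:34000439-34000468: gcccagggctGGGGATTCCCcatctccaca
An interferon response core, TTTC, any 2 bases and TTTC, searched on both strands, was found in B2m among the members and in 3.44% of promoters. Of the 18 other class I presentation genes, Psme1, Erap1, H2-T22 and H2-T23 held it. A shorter form, TTTC, any 2 bases and TT, was in Il33, Tlr3, B2m, H2-D1 and H2-K1 and in 23.9% of promoters. The longer core of B2m lies on the strand opposite the gene, and its reverse complement is in capitals.
B2m, chr2:122147538-122147567: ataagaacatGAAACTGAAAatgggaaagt
These matches describe letters in a window and were not measured as binding.

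Genes of class I presentation beyond the members covered a wide range of levels in astrocytes. Pdia3 and Canx, chaperones of the endoplasmic reticulum, stood at 913 ± 37.1 and 636 ± 161.7 CPM (SD, n = 4). Fcgrt, the heavy chain of the neonatal Fc receptor, was at 238.4 ± 39.6 CPM and Tapbp, which encodes tapasin, at 173.2 ± 39.99 CPM. Tap1 and Tap2, the peptide transporter subunits, stood at 18.2 ± 10.5 and 46.2 ± 12.2 CPM, and Psmb8, of the immunoproteasome, at 4.83 ± 3.74 CPM. H2-T23, a nonclassical heavy chain, was at 4.89 ± 3.42 CPM in astrocytes and 262.6 ± 96.4 CPM in endothelial cells, where it was higher (log2 5.75, SE 1.76, edgeR adjusted p = 0.0398). Of 20 tested genes of this list, 1 was higher in endothelial cells and 0 were called in mural cells, and 2 were lower in oligodendrocytes, Fcgrt and Psme1. Over all genes 1.92% were higher in endothelial cells, 13.4% were called in mural cells and 0.739% were lower in oligodendrocytes. Nlrc5, the class I transactivator, was at most 0.257 CPM in astrocyte sums, and Cd74, of class II, was at 0 in all of them. In AST5, 5 of 21 tested genes of the class I list were lower, Tap2 among them, where 16.6% of all genes tested were lower. Of the interferon response list, Ifitm3, a membrane protein that restricts viral entry, was higher in mural (log2 4.43, SE 0.99, adjusted p = 0.0325) and endothelial cells (log2 4.43, SE 1.00, adjusted p = 0.0347), and 2 of 29 tested genes were higher in each, Iigp1 being the other. The shares of all genes that were higher were 1.76% in mural and 1.92% in endothelial cells. Ifitm3 was lower than in astrocytes in microglia, neurons and oligodendrocytes (adjusted p = 0.00282, 0.0151 and 0.0206). In microglia 3 genes of the list were lower and 0 higher, Ifit3 and Ifitm2 being the others, where 10.6% of all genes were lower.

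Levels of different genes can be compared only per length of exon. Per kilobase and in astrocytes, Tril came first at 250.1 ± 23.01 CPM, then B2m at 198.7 ± 99.3, Il33 at 125 ± 38.1, H2-K1 at 95.5 ± 10.3, Tlr3 at 75.2 ± 8.13, H2-D1 at 29.5 ± 13.9, C4b at 10.3 ± 6.56 and Serpina3n at 8.85 ± 0.918 (SD, n = 4). The ranges over suspensions overlapped between Tril and B2m, B2m and Il33, Il33 and H2-K1, H2-D1 and C4b, and C4b and Serpina3n, so that the order of these neighbours is within their spread, except that H2-D1 was above C4b in each of the 4 suspensions. In microglia the means were 1183 ± 182.8 CPM per kilobase for B2m, 579 ± 539 for H2-K1 and 237.9 ± 56.6 for H2-D1 (SD, n = 3). H2-K1 overlapped with both: it was above B2m in hippocampus 2 and below H2-D1 in cortex 2.

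Some reads cannot be told from those of neighbours or copies. C4b, on chromosome 17 from 34728380 to 34743882 on the minus strand, shares 22.7% of its 75-base exon stretches with C4a, which was counted in 39 astrocytes. Tril, on chromosome 6 from 53815468 to 53820830 on the minus strand, overlaps an antisense gene over 21.4% of its exon bases. That gene, Gm16499, is not among the genes counted here. Tlr3, on chromosome 8 from 45395665 to 45411080 on the minus strand, overlaps one over 7.32%, Gm45542, which was counted in 85 astrocytes. Whether the counting used strand is not given in the sources used here. H2-D1 and H2-K1 share 5.56% and 3.10% of such stretches with other class I genes. Il33 (chromosome 19, 29925114 to 29960718, plus strand), B2m (chromosome 2, 122147686 to 122153083, plus strand) and Lcn2 share none. Positions are those of GRCm38, and counts are over all annotated exons, untranslated regions included.

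**Figure D3:**
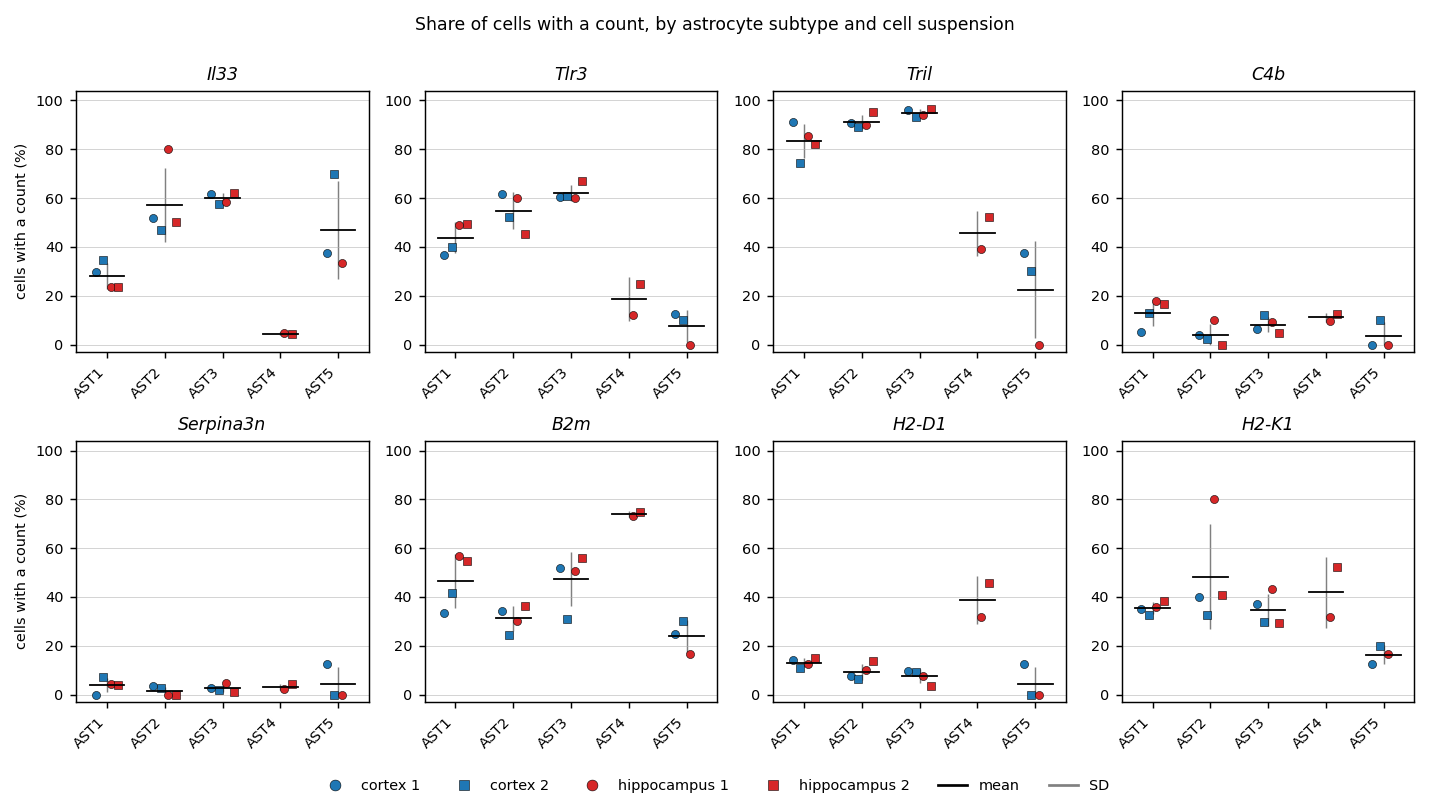
Share of cells in percent with at least 1 count of each gene, for AST1 to AST5. Points are suspensions with at least 3 cells (blue cortex, red hippocampus), black lines are means and grey lines SDs. Il33, Tlr3 and Tril are lowest in AST4 or AST5 (Il33 4.88% and 4.17% in AST4), and B2m and H2-D1 are highest in AST4 (H2-D1 31.7% and 45.8%).

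The 3 large subtypes were also compared in pairs, with 4 sums each. No member was called by edgeR in AST1 against AST2, AST1 against AST3 or AST2 against AST3, where 0.293%, 0.0318% and 0.0127% of 15715 genes were. The members with an unadjusted p under 0.05 numbered 3, 3 and 0; DESeq2 called 1 in all pairs together and limma's voom 6. Over all genes 5.59%, 3.56% and 4.07% had an unadjusted p under 0.05, DESeq2 called 3.54%, 2.02% and 1.6%, and voom 0.84%, 0.197% and 1.97%. B2m, which DESeq2 called, was at 118, 161.3, 252.04 and 256.3 CPM in AST1 and at 98.8, 73.2, 68.5 and 130.01 CPM in AST2. The ranges overlapped, but within each suspension AST1 was higher, by 0.94 on the log2 scale (SE 0.25, edgeR adjusted p = 0.357, DESeq2 adjusted p = 0.0174). Tlr3 went the other way, lower in AST1 than AST2 in 3 of 4 suspensions (log2 -0.82, SE 0.25, edgeR adjusted p = 0.525), and Il33 lower in AST1 than in AST3 in all 4 (log2 -1.09, SE 0.36, edgeR adjusted p = 1), which passed with limma's voom (log2 -1.53, adjusted p = 0.00477). Against all other subtypes, no member was called by edgeR in AST1, AST2 or AST3, and none had an unadjusted p under 0.05; DESeq2 called 0 and limma's voom 0, 2 and 1, out of 43, 530 and 100 genes that voom called in all. In AST2 0.0548% of all genes were called, and in AST3 0%, where 1.89% of 18233 genes had an unadjusted p under 0.05 with edgeR and DESeq2 called 727 genes. These fits weighted the other subtypes by cell number. With equal weights edgeR called Tlr3 in AST1, AST2 and AST3 (log2 2.34, 3.375 and 2.75, adjusted p = 0.0240, 0.00209 and 0.00896). In those fits 1007, 958 and 903 of all genes were called. B2m, Tril, Tlr3, Il33 and H2-D1 are among the genes the study listed for its subtypes from these same cells.

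Between brain areas, shares of all astrocytes did not overlap for the members with counts other than H2-K1. How many of all genes part in this way was not counted. With 2 suspensions an area, values can part without a true difference, and the mix of subtypes differs between areas for every gene. With AST1, AST2 and AST3 weighted equally, which also leaves out AST4 and AST5, the gap between the means was smaller for these members, and for H2-K1 it was larger. Equal weights rest on few hippocampal AST2 cells, 10 and 22 in the 2 suspensions. Il33 was counted in 52.1% and 49.3% of cortical and in 29.01% and 30.1% of hippocampal astrocytes. At equal weights these became 47.1 ± 0.948% in cortex and 49.7 ± 6.17% in hippocampus (SD, n = 2), which overlap. At the cortical mix of subtypes, 58.5% of hippocampal astrocytes would hold Il33, a value that draws on the 80% and 50% of those AST2 cells. At the mix as found of AST1 to AST3 alone, Il33 was at 50.6% in cortex and 32.7% in hippocampus. C4b went from 5.81 ± 0.853% against 14.05 ± 1.36% to 7.05 ± 2.65% against 9.77 ± 3.60%, with overlap, and H2-D1 from 8.47 ± 1.21% against 14.8 ± 1.86% to 9.64 ± 1.12% against 10.4 ± 0.476%. For H2-D1 leaving out AST4 and AST5 without a change of weights already gave 8.43% against 11.997%, and Tril went from 89.4% against 81.3% to 90.7% against 86.5%, and at equal weights to 89.2% against 90.5%, with overlap. H2-K1 went from 34.6 ± 4.44% against 37.7 ± 0.481% to 34.5 ± 4.02% against 44.6 ± 11.9% at equal weights, with overlap in both.

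**Figure D4:**
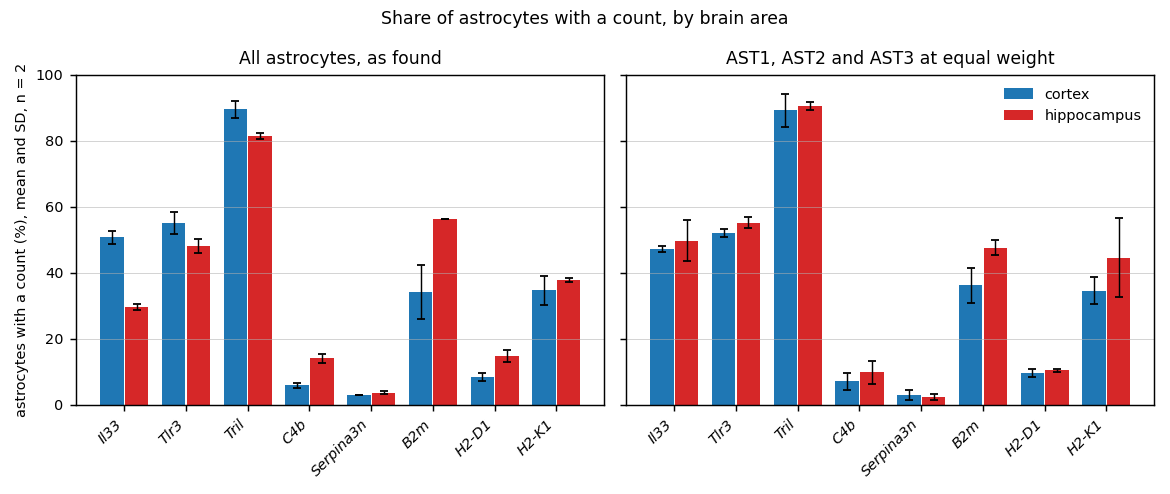
Share of astrocytes in percent with a count, for cortex (blue) and hippocampus (red), as means and SDs of 2 suspensions each. Left, all astrocytes as found; right, AST1, AST2 and AST3 with equal weight. Il33 is at 50.7% in cortex and 29.6% in hippocampus on the left and at 47.1% and 49.7% on the right, and B2m is higher in hippocampus in both, 56.3% against 34.2% and 47.5% against 36.1%.

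At equal weights the order of the means turned for Il33, Tlr3, Tril and Serpina3n, and of these Tlr3 alone did not overlap between areas. As found, 54.99 ± 3.23% of cortical and 48.05 ± 2.10% of hippocampal astrocytes held Tlr3, and at equal weights 52.02 ± 1.34% and 55.1 ± 1.72% (SD, n = 2), without overlap in either.

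For B2m the gap kept its direction at equal weights. As found, 39.9% and 28.5% of cortical and 56.2% and 56.3% of hippocampal astrocytes had a count, and at equal weights the means were 36.1 ± 5.21% and 47.5 ± 2.27% (SD, n = 2), without overlap. The fit over the 12 sums of AST1, AST2 and AST3 put B2m higher in hippocampus by 0.71 on the log2 scale (SE 0.21), which missed the threshold with edgeR (adjusted p = 0.605) and passed it with DESeq2 (adjusted p = 0.00735). These 12 sums come from 4 suspensions, so sums of an area share animals, and p-values that count them as separate are too small. With the suspension as a block in limma's voom, 0 members and 0.293% of all genes were called. Over all genes the median in this fit was -0.21. No member was called by edgeR, where 0.07% of all genes were; 3 had an unadjusted p under 0.05 (Tlr3, B2m, H2-K1), as did 5.02% of all genes. DESeq2 called 1 member and 4.85% of all genes, and limma's voom 0 members and 0.185% of genes. With 2 suspensions an area, brain area and litter cannot be told apart, nor can area and the pooling of animals.

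The area difference itself could depend on subtype, and this was tested as an interaction, in which 2.55% of all genes and 0 members were called by edgeR, 0 by DESeq2 and 0 by voom (12.3% and 0.127% of all genes). Tril had the lowest unadjusted p, 0.0210, the only one of the members under 0.05 (adjusted p = 0.235), as were 14.4% of all genes. In AST2 it was at 1594 and 1494 CPM in cortex and 1329 and 1293 CPM in hippocampus, and in AST3 at 1427 and 1166 CPM against 1757 and 1901 CPM. The order of the areas was thus opposite in AST2 and AST3, without overlap in either.

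Correlations between members from cell to cell, within a subtype and suspension, were weak in the median. Over the 28 pairs of the 8 members with counts, the median Pearson correlation of log2(CPM + 1) across sets of at least 40 cells was at most 0.078 in size, and 0.074 after every cell was thinned to 50000 counts. Single sets reached 0.544 in size. Over all astrocytes, 829 held Tril and Tlr3 together, where 789.99 would if these were unrelated. H2-D1 and H2-K1 were together in 98 astrocytes, against 73.1 if unrelated, and C4b and Serpina3n in 5, against 5.57. In sparse counts such weak relations are no finding. The most frequent number of members with a count in an astrocyte was 3, in 608 of 1781 cells, while 26 cells held none and 1 held 7.

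Across 26 sums of at least 5 cells, from AST1 to AST5, mural cells, endothelial cells and neurons, which differ in cell type and cell number, the genes most alike in pattern by Pearson correlation were Lfng for Tlr3 (0.95), Ppp1r3c for Tril (0.94), Chst1 for Il33 (0.94), Col9a3 for C4b (0.97), Rhbdl1 for Serpina3n (0.88), Sparc for B2m (0.91), App for H2-D1 (0.90) and Hadh for H2-K1 (0.93). For Hadh the Spearman correlation was only 0.29, and the others lay at 0.78 or more. Among the members, Tlr3 and Tril were alike (0.82), as were B2m and H2-K1 (0.79), and Il33 and H2-D1 were opposed (-0.69).

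Of the 40 tests of 8 members in 5 classes, 10 were called, 3 higher and 7 lower. With the suspension as a block in place of brain area, which compares classes inside the same animals, 0 of the 40 were called and the adjusted p of the 10 lay between 0.0534 and 0.0812. Without hippocampus 1 or hippocampus 2 the number was also 0, without cortex 1 it was 1 and without cortex 2 it was 3, whereas DESeq2 called 25 and limma's voom 33. Calls over all genes moved as well: by contrast they made up 0.562% to 17.9% of genes as reported, 0.00611% to 3.15% with the block, 0% to 3.85% with a suspension left out, 20.4% to 47.6% with DESeq2 and 29.8% to 65.1% with voom. In simulations of the mural comparison with the estimated spread between sums, 0% of the 67 genes with a 16-fold difference were recovered. With a dispersion of 0.1 it was 98.5%. Few genes were changed in the simulations, whereas 13.4% of all genes were called in the mural data. The adjusted threshold depends on how many genes differ, so these values do not give the power of the tests. No other class was simulated. A missing call in these small classes does not show that levels were equal.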

How the data were processed

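Counts per gene were deposited by the authors for each cell: 75-base paired-end Smart-seq2 reads were aligned with STAR 2.5.2b to GRCm38.p5 with Gencode M12 exons and counted with HTSeq, uniquely mapped reads only, after FastQC 0.11.4. Spike-ins and reads outside exons were left out here. Of 2031 cells 2030 had counts, and 33 not listed with a type and 15 without one entered no comparison. In a table of the whole series 1999 columns were not used.

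Counts were summed by type and suspension (at least 3 cells for classes, 5 for subtypes), scaled by TMM and tested with edgeR 4.0.16 (robust quasi-likelihood, filterByExpr, R 4.3.3), with Benjamini-Hochberg adjustment over all genes and a limit of 0.05. P-values measure the spread between sums. Sums of a suspension share its animals, so p-values for brain area, from 12 sums of 4 suspensions with 8 residual degrees of freedom, are too small. Alternatives used DESeq2 1.42.0, limma 3.58.1, other filters and scalings, and each suspension left out. The suspension is the pairing unit, since by the study's methods all cells of a suspension come from the same animals. The steps were tested on simulated data.

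The 9 members and the gene lists were chosen with earlier results of these data known. Of other listed genes, at most 3 called per list and contrast, by size, are named. Their class calls are from the fit without the suspension as a block, and their values with the block are not given. Receptors, partners and other listed genes given by level were picked for their role after values were seen. Bounds at 0 counts use 3 counts over the group.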

Additional observations from a re-analysis of the deposited data

Results flagged for a closer look

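In groups of 4 suspensions, 8 of 85 checked held a suspension far from the other 3. The limit used gives about 1 in 20 only for independent normal values. Here the groups overlap, since levels and shares of the same gene and type are both checked. A group with 3 values of 0 is always flagged. The 8 are therefore no measure of an excess. Il33 in AST1 was 490.6 CPM in cortex 2 and between 185.2 and 218.4 CPM elsewhere. In mural cells Il33 was 57.4 CPM in hippocampus 2, from 2.13% of its cells, and 0 in the other suspensions. Tlr3 in mural cells was 12.3 CPM in hippocampus 1, against 0.129 CPM or less. Tril in endothelial cells was 93.1 CPM in cortex 1, against 11.4 CPM or less. The share of astrocytes with H2-K1 was 31.5% in cortex 2 and between 37.4% and 38.1% in the others. Il33 was counted in 80% of the 10 AST2 cells of hippocampus 1, against 46.996% to 51.7%, and Tlr3 in 67.1% of AST3 cells of hippocampus 2, against 60% to 60.9%.

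Members also had counts in cells that entered no comparison. Of the 33 cells not listed with a type, all from cortex 1, 30 held Tril, 20 Il33, 14 B2m, 11 H2-K1, 10 Tlr3, 5 H2-D1, 2 Serpina3n and 1 C4b. Of the 15 cells listed without a type, 7 held B2m, 6 Il33, 4 Tril, 2 H2-K1, 1 Tlr3, 1 C4b and 1 H2-D1.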

How the results depend on the processing

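Of 1304 alternative values for single genes, 1120 kept their direction and side of the threshold, 71 came to pass it, 60 no longer did and 53 changed direction. Causes were not tested. The 10 class calls became 25 with DESeq2, 33 with limma's voom, 1 with no low-count filter, 6 with at least 5 cells a sum (microglia and oligodendrocytes could not be fitted) and 0 to 3 with 1 suspension left out. With suspension as replicate block there were 0. The share of all genes called, by contrast, was 0.562% to 17.9% as reported, 20.4% to 47.6% with DESeq2, 29.8% to 65.1% with voom, 0.208% to 2.75% with no filter, 2.86% to 15.1% with at least 5 cells, 0% to 3.85% with 1 suspension left out and 0.00611% to 3.15% with the block. The 1 subtype call became 3 with DESeq2, 8 with voom, 5 with at least 10 cells, 4 with the other subtypes weighted equally, and 2 to 3 with 1 suspension left out, where up to 17% of all genes were called as reported, 43.7% with DESeq2, 23.9% with voom, 11.2% with at least 10 cells, 16.7% with equal weights and 12.4% with 1 suspension left out. Leaving 1 suspension out can leave a single sum in a group, which is then assumed to vary like the others. Pairs of AST1, AST2 and AST3 gave 1 call with DESeq2 and 6 with voom, against 0, and brain area 1 with DESeq2, against 0. The mean share of astrocytes over the 9 members was 31.5%, 30.01% with at least 5 counts required and 29.1% after thinning to 50000 counts.

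Direction changed for the following log2 differences. With voom, Serpina3n was at -0.40 in neurons, Tril was at -0.0493 in AST1, Serpina3n was at -0.66 in AST1, Serpina3n was at 0.34 in AST2, C4b was at 0.10 in AST3, Serpina3n was at -0.12 in AST1 against AST2, Serpina3n was at -0.52 in AST1 against AST3, Tril was at 0.19 in AST2 against AST3, H2-D1 was at -0.45 in AST2 against AST3, Il33 was at 0.18 for area, Serpina3n was at 0.27 for area and H2-D1 was at -0.36 for area. With DESeq2, Tril was at -0.11 in AST1, H2-K1 was at -0.0405 in AST1, Tril was at 0.0531 in AST2 against AST3 and Il33 was at 0.01 for area. With DESeq2's size factors, Tril was at -0.11 in AST1, H2-K1 was at -0.0405 in AST1, Tril was at 0.0531 in AST2 against AST3 and Il33 was at 0.0101 for area. With cells scaled alike, Tril was at -0.0175 in AST1 and Il33 was at 0.0359 for area. With the replicate block, H2-D1 was at -0.0489 in AST2 against AST3. With the replicate block by voom, Il33 was at 0.11 for area and H2-D1 was at -0.29 for area. With at least 10 cells, Tril was at -0.0139 in AST1, C4b was at 0.48 in AST5 and B2m was at 0.01 in AST5. With equal weights, Il33 was at 0.58 in AST1, Tlr3 was at 2.34 in AST1, H2-K1 was at 0.0653 in AST3 and H2-K1 was at 0.0246 in AST4. The change of Tlr3 in AST1 passed the threshold (adjusted p = 0.0240).

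With 1 suspension left out in turn, the range was H2-K1 in endothelial cells from -0.39 to 0.63, Il33 in oligodendrocytes from -1.29 to 2.24, Serpina3n in neurons from -3.57 to 2.20, Tlr3 in AST1 from -0.41 to 0.0696, Tril in AST1 from -0.0766 to 0.12 and C4b in AST3 from -0.68 to 0.41. It was Serpina3n in AST3 from -0.43 to 1.68, H2-K1 in AST4 from -0.80 to 0.38, Serpina3n in AST5 from -15.70 to 0.15, H2-K1 in AST1 from -0.0082 to 0.15, Tlr3 in AST3 from -0.0439 to 0.46 and B2m in AST3 from -0.34 to 0.0234. For the rest it was Tril in AST2 against AST3 from -0.14 to 0.0912, H2-D1 in AST2 against AST3 from -0.47 to 0.29, Il33 for area from -0.31 to 0.24, H2-D1 for area from -0.56 to 0.60 and C4b for area from -0.57 to 1.24.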
